A study of Mus musculus with 27 samples.

Results

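The genes described here are 10 clock-controlled regulators in mouse lung: the nuclear receptor genes Nr1d1 and Nr1d2, the bZIP transcription factor genes Dbp, Tef, Hlf and Nfil3, the clock repressor genes Ciart, Cipc and Bhlhe41, and the ubiquitin protease gene Usp2. They were found by gene symbol among the 56941 genes of the deposited count and TPM tables. All 10 were present, and all 10 were among the 24629 genes that passed the filter on low counts. Arntl, which encodes the clock activator BMAL1 and is not one of the 10, was followed beside them.

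The molecular clock is a transcriptional loop in which the BMAL1 and CLOCK proteins bind E-box sequences and switch on genes that later repress them. Nr1d1 and Nr1d2 encode REV-ERBα and REV-ERBβ, repressors that bind RORE sequences and keep Arntl, Npas2 and Nfil3 low. Dbp, Tef and Hlf encode activators of D-box sequences, and Nfil3 (E4BP4) encodes the repressor that competes with them, so the D-box factors pass the time of day on to output genes. In the lung this clock is known to gate allergen and pollutant responses, chemokine release and the response to glucocorticoids.

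Whole lungs came from 27 male C57Bl/6 mice of 7 to 8 weeks in 4 groups. HDM_CP mice (n = 7) received 5 oropharyngeal instillations of 10 µg of an extract of house dust mite (HDM), which is allergenic and induces asthma-like airway inflammation, in 50 µl, 2 to 3 days apart, and 24 h after the last one 100 µl of combustion products (CP, what plywood, plastic and paper gave off when burned) at 2 mg per ml saline. HDM_SAL mice (n = 6) received the same allergen and then 100 µl saline. PBS_CP mice (n = 7) received phosphate-buffered saline (PBS) in place of the allergen and then the combustion products, and PBS_SAL mice (n = 7) received PBS and then saline. All lungs were taken 24 h after that last instillation and flash frozen, and RNA was polyA-selected and sequenced. The labels give no clock time of harvest, and a library is 1 mouse as far as they say. Libraries are named by group and number (HDM_CP 45).

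Library totals of the deposited estimated counts ran from 56.4 M to 84.5 M (M, mega), about 4 times the 20 M read pairs planned, and from 14.1 M to 21.1 M once divided by 4. They are read as estimates, so counting error is larger than they imply. Levels below are counts per M (CPM), which compare libraries, and TPM, which is also scaled to gene length and compares genes. Lung marker genes were abundant in every library, and no marker list had a gene at 0 throughout. HDM_SAL 50, HDM_SAL 54 and HDM_SAL 99 stood apart by a mitochondrial share of 3.09% to 3.86% of counts, against 2.08% to 2.79% in the other libraries. Club cell genes summed to 32033 CPM in HDM_SAL 50 and 38853 CPM in HDM_SAL 54, against 19029 to 21451 CPM in the other HDM_SAL libraries. Ciliated cell genes summed to 747 and 922 CPM in these 2 libraries, against 501 to 617 CPM. HDM_CP 45 was also high in club cell genes, at 31727 CPM. Library numbers fall into 3 runs (45 to 64, 66 to 81 and 96 to 105), and within each run they go through HDM_CP, HDM_SAL, PBS_CP and PBS_SAL in that order. If mice were harvested in number order, time of day and group cannot be told apart, a limit that touches every comparison of clock genes below.

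The sequences that the clock proteins read are shown for 5 of the genes and for Arntl, because the members split by which of these short motifs their promoters hold. Each window runs from 250 bases before to 50 bases after the annotated start, written 5′ to 3′ on the gene's strand, from RefSeq on the GRCm38.p6 build. All 10 genes and Arntl had at least 1 window in the table. Capitals mark E-boxes (CACGTG) in Tef, Ciart and Bhlhe41, the E-box variant CACGTT in Nr1d1 (read on the opposite strand), and the RORE core (TAGGTCA) in Nfil3 (opposite strand) and Arntl.
Nr1d1 (chr11:98775328-98775627, minus strand): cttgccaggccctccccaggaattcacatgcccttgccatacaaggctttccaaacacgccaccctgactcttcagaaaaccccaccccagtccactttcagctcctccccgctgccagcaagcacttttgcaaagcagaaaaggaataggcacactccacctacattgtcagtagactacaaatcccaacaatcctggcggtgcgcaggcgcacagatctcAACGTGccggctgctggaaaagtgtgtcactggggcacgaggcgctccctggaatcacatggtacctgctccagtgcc
Tef (chr15:81802423-81802722, plus strand): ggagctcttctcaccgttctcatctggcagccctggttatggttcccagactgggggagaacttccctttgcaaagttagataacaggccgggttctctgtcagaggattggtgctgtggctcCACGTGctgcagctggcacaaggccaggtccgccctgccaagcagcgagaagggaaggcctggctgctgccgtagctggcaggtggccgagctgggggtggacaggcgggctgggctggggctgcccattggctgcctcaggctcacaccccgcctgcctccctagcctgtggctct
Nfil3 (chr13:52980990-52981289, minus strand): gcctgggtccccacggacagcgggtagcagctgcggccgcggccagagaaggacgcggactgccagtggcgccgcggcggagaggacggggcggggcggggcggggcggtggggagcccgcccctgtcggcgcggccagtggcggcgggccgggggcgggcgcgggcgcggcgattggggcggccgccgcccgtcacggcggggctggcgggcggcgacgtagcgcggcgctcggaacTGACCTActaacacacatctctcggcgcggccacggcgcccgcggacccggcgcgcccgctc
Ciart (chr3:95882179-95882478, minus strand): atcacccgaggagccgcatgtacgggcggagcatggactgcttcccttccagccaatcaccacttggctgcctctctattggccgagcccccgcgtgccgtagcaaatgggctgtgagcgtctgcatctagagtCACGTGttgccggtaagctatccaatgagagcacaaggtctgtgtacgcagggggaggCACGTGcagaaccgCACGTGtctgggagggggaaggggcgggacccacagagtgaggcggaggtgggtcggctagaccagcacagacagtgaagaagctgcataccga
Bhlhe41 (chr6:145865371-145865670, minus strand): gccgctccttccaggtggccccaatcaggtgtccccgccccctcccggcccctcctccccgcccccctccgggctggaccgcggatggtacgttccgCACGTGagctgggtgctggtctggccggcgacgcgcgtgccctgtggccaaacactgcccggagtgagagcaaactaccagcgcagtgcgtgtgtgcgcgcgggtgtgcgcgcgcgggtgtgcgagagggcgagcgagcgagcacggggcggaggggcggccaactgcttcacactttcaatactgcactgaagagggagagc
Arntl (chr7:113207261-113207560, plus strand): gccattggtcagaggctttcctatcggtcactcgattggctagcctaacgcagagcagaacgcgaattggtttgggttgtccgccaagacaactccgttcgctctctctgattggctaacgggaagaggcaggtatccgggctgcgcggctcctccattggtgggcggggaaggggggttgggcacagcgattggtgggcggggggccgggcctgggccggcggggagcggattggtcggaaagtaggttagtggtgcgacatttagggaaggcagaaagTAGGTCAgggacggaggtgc

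Ciart held 3 E-boxes in its window, at 116, 58 and 44 bases before the start. Tef held 1 E-box in each of its 2 annotated windows, Cipc held 1 in 1 of its 2 windows and Bhlhe41 held 1, while 7.15% of the 32851 mouse promoter windows of this length held at least 1. The CACGTT variant in Nr1d1 lay 28 bases before the start, and 4.68% of windows held it. The RORE core, searched as TAGGTCA or TGGGTCA, lay 12 bases before the start of Nfil3 and 30 bases after an annotated start of Arntl, and 6.45% of windows held it. Hlf held a cyclic-AMP response element (TGACGTCA) 9 bases before its start, which 1.79% of windows held. A D-box, searched as TTATGTAA or TTACGTAA, was in none of the members' windows and in 1.06% of all windows. Both strands were searched for every motif. None of these letters were in the windows of Nr1d2, Dbp or Usp2.

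Per gene length, Nr1d1, Tef and Dbp were the most abundant of the 10 transcripts in PBS_SAL lungs. They averaged 279 ± 32 TPM, 275 ± 36 TPM and 232 ± 35 TPM (SD, n = 7), and the SD ranges of these 3 overlapped. Nr1d2 followed at 119 ± 12 TPM. Ciart (36.3 ± 7.5 TPM), Cipc (31.1 ± 1.3 TPM) and Hlf (25.6 ± 4.5 TPM) came next, each with an SD range that overlapped with those of the other two. Bhlhe41 averaged 18 ± 1.9 TPM and Usp2 11.3 ± 1.3 TPM. Arntl (5.21 ± 2.04 TPM) and Nfil3 (4.05 ± 1.48 TPM) were lowest, with overlapping ranges, in these control lungs.

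**Figure D1:**
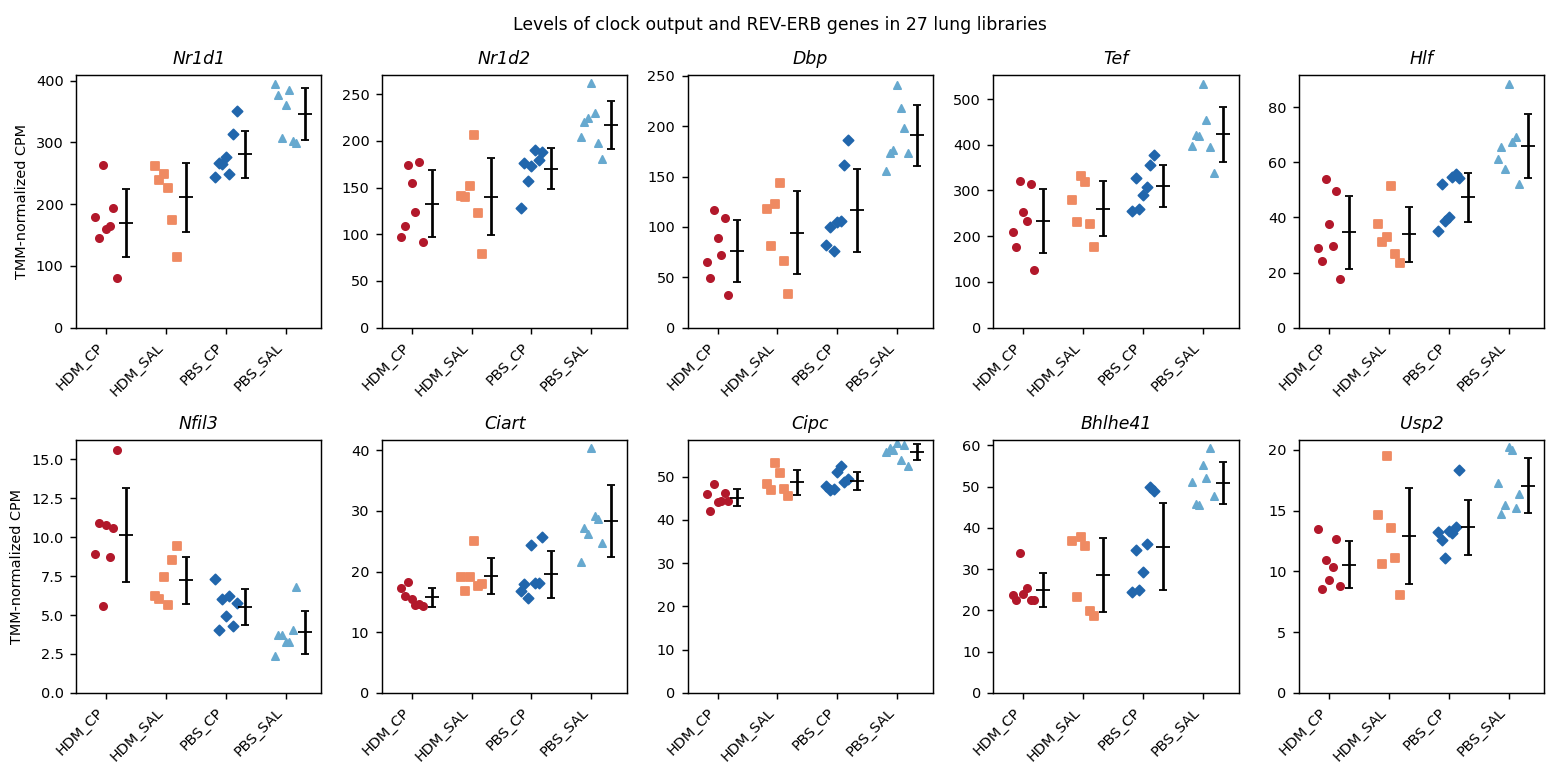
Level of each of the 10 genes (CPM, own vertical axis for each gene) in every library, by group, with 1 point per mouse and a line at the group mean with a bar of 1 SD. Of the 10 genes, 9 have their highest mean in PBS_SAL lungs, while Nfil3 is highest in HDM_CP lungs.

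Across the groups, 9 of the 10 genes had their highest mean in PBS_SAL lungs, and Nfil3 its highest in HDM_CP lungs. HDM_CP lungs had the lowest mean for 8 genes, and HDM_SAL lungs for Hlf. HDM_CP lungs, against PBS_SAL lungs, had 1 gene higher and 9 lower by the quasi-likelihood test of edgeR, Benjamini-Hochberg adjusted at a threshold of 0.05, where 14.5% of all tested genes were called, 8.61% higher and 5.88% lower. HDM_SAL lungs, against PBS_SAL lungs, had 1 gene higher and 8 lower, where 5.44% of all genes were called, 3.19% higher and 2.25% lower. HDM_CP lungs against PBS_CP lungs gave 1 higher and 1 lower, where 7.87% of all genes were called, 5.60% higher and 2.27% lower. Combustion products gave no called member in either single comparison. The median log2 fold change over the 10 genes was -0.85 in HDM_CP against PBS_SAL lungs, where the median over all genes was 0.01. It was -0.66 in HDM_SAL against PBS_SAL lungs, -0.39 in HDM_CP against PBS_CP lungs, -0.40 in PBS_CP against PBS_SAL lungs and -0.18 in HDM_CP against HDM_SAL lungs, with medians over all genes between -0.001 and 0.013. These comparisons share groups and are not independent of each other. In whole lung, fewer cells of a type and less RNA per cell cannot be told apart.

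**Figure D2:**
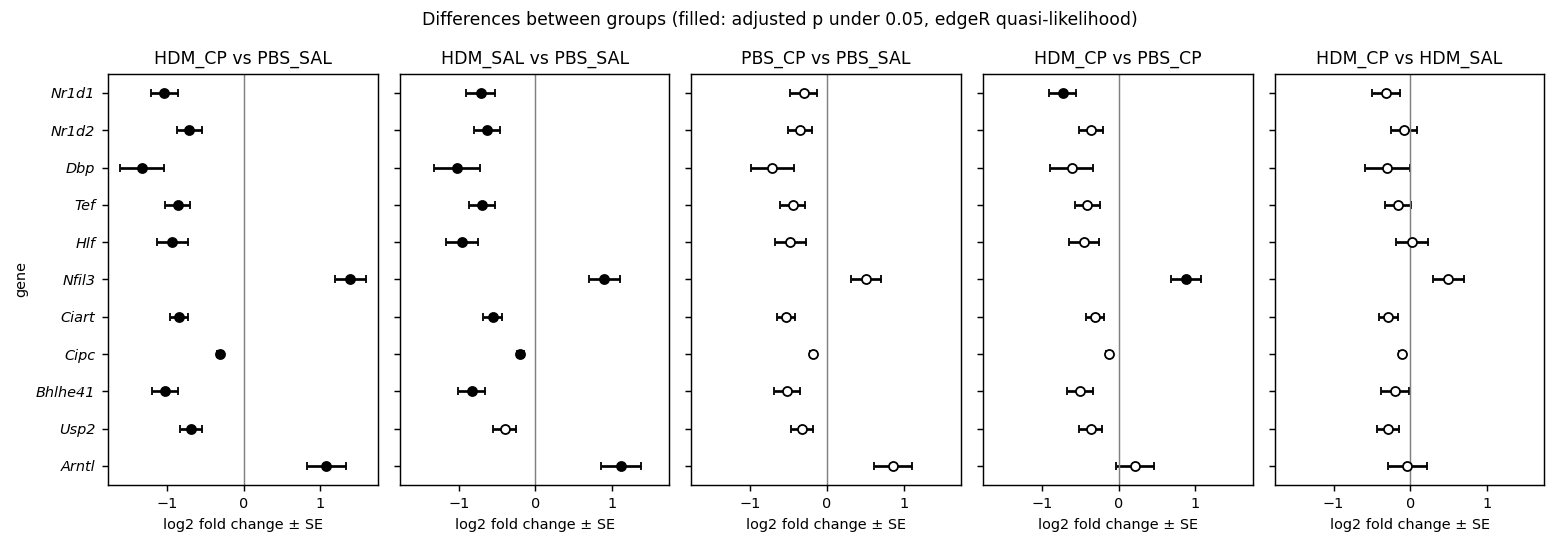
Log2 fold change of each gene and of Arntl in 5 comparisons of groups, with bars of 1 standard error; filled points passed the adjusted threshold of 0.05 and open points did not. Of the 10 genes, 9 lie below 0 and Nfil3 above 0 in HDM_SAL against PBS_SAL, PBS_CP against PBS_SAL, HDM_CP against PBS_CP and HDM_CP against PBS_SAL.

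Both REV-ERB genes fell in allergen-treated lungs. Nr1d1 had a lowest, median and highest level of 79.7, 164 and 263 CPM in HDM_CP lungs and 115, 233 and 261 CPM in HDM_SAL lungs. In the lungs without allergen these were 244, 267 and 351 CPM (PBS_CP) and 299.6, 361 and 394 CPM (PBS_SAL). Every HDM_CP and every HDM_SAL library lay below every PBS_SAL library, while PBS_CP libraries overlapped with both sides. Nr1d1 fell by 1.04 ± 0.18 on the log2 scale (SE) in HDM_CP against PBS_SAL lungs (edgeR adjusted p = 2.52e-04). The fall was 0.72 ± 0.19 in HDM_SAL against PBS_SAL lungs (edgeR adjusted p = 0.0245). Nr1d1 was the only member called lower within the CP-exposed mice, by 0.73 ± 0.18 in HDM_CP against PBS_CP lungs (edgeR adjusted p = 0.0107). Of the 10 members, 9 had a negative value in that comparison. Thra overlaps Nr1d1 by 1075 bases on the other strand, and no source says that counting was by strand. Thra itself fell by 0.23 ± 0.08 in HDM_CP against PBS_SAL lungs (edgeR adjusted p = 0.0467) and was not called in the other comparisons.

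Nr1d2, the gene of the second REV-ERB protein, had a lowest, median and highest level of 91.8, 124 and 177 CPM in HDM_CP lungs, 79.3, 140.4 and 207 CPM in HDM_SAL lungs, 128, 176 and 190.4 CPM in PBS_CP lungs and 181, 220.0 and 262 CPM in PBS_SAL lungs. HDM_CP and PBS_SAL libraries did not overlap, and 1 HDM_SAL library, HDM_SAL 72, lay inside the PBS_SAL range. The fall was 0.71 ± 0.16 in HDM_CP against PBS_SAL lungs (edgeR adjusted p = 0.00302) and 0.63 ± 0.17 in HDM_SAL against PBS_SAL lungs (edgeR adjusted p = 0.0268). Its value in HDM_CP against PBS_CP lungs, -0.36 ± 0.16, did not pass (edgeR adjusted p = 0.190).

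The 3 PAR bZIP activators fell in both allergen groups against PBS_SAL lungs. Dbp, a D-box activator with a strong daily rhythm in many tissues, had a lowest, median and highest level of 32.4, 72.6 and 117 CPM in HDM_CP lungs and 32.98, 99.4 and 144 CPM in HDM_SAL lungs. PBS_CP lungs had 75.7, 105 and 187 CPM and PBS_SAL lungs 155, 176 and 241 CPM. All libraries of both allergen groups lay below the lowest PBS_SAL library. Dbp fell by 1.32 ± 0.29 on the log2 scale in HDM_CP against PBS_SAL lungs (edgeR adjusted p = 0.00222) and by 1.02 ± 0.30 in HDM_SAL against PBS_SAL lungs (edgeR adjusted p = 0.0437). Dbp overlaps Sphk2 by 737 bases on the other strand, and Sphk2 was not called in any comparison.

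Tef, the thyrotroph embryonic factor gene, reached 127, 233 and 320.0 CPM (lowest, median, highest) in HDM_CP lungs and 176, 255 and 331 CPM in HDM_SAL lungs, against 254, 308 and 377 CPM in PBS_CP lungs and 339, 419 and 533 CPM in PBS_SAL lungs. Again no library of either allergen group reached the PBS_SAL range. Tef fell by 0.86 ± 0.16 in HDM_CP against PBS_SAL lungs (edgeR adjusted p = 6.01e-04) and by 0.70 ± 0.17 in HDM_SAL against PBS_SAL lungs (edgeR adjusted p = 0.0161). Hlf, the hepatic leukaemia factor gene, had 17.8, 29.8 and 53.9 CPM in HDM_CP lungs, 23.3, 32.1 and 51.6 CPM in HDM_SAL lungs, 35.0, 52.0 and 55.8 CPM in PBS_CP lungs and 52.1, 65.5 and 88.4 CPM in PBS_SAL lungs. HDM_SAL and PBS_SAL libraries were apart by a narrow margin, and HDM_CP 66 reached into the PBS_SAL range. Hlf fell by 0.93 ± 0.20 in HDM_CP against PBS_SAL lungs (edgeR adjusted p = 0.00213) and by 0.96 ± 0.21 in HDM_SAL against PBS_SAL lungs (edgeR adjusted p = 0.00861). In HDM_CP against PBS_CP lungs the values of Dbp, Tef and Hlf lay between -0.61 and -0.41, and none of the 3 passed (edgeR adjusted p of 0.129 to 0.213).

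Nfil3, the D-box repressor gene and a known REV-ERB target, went the other way and was the only member called higher in any comparison. Its lowest, median and highest levels were 5.60, 10.6 and 15.6 CPM in HDM_CP lungs, 5.67, 6.82 and 9.43 CPM in HDM_SAL lungs, 4.04, 5.77 and 7.31 CPM in PBS_CP lungs and 2.39, 3.72 and 6.80 CPM in PBS_SAL lungs. Neighbouring groups overlapped broadly, with all HDM_SAL libraries inside the HDM_CP range, and PBS_SAL 105 at 6.80 CPM lay inside the range of every other group. Nfil3 rose by 1.39 ± 0.20 on the log2 scale in HDM_CP against PBS_SAL lungs (edgeR adjusted p = 2.6e-05). The rise was 0.90 ± 0.20 in HDM_SAL against PBS_SAL lungs (edgeR adjusted p = 0.00918) and 0.88 ± 0.20 in HDM_CP against PBS_CP lungs (edgeR adjusted p = 0.00472). Nfil3 is also known from myeloid and innate lymphoid cells, and 10 genes of monocytes and recruited macrophages summed to 692 to 1476 CPM in HDM_CP lungs, 591 to 905 CPM in HDM_SAL lungs, 617 to 774 CPM in PBS_CP lungs and 656 to 1154 CPM in PBS_SAL lungs. Of these 10 genes, 6 were called higher and 0 lower in HDM_CP against PBS_SAL lungs, and 3 higher and 0 lower in HDM_SAL against PBS_SAL lungs. The 8 neutrophil genes summed to 84.8 to 281 CPM in HDM_CP lungs, 54.5 to 91.9 CPM in HDM_SAL lungs, 62.7 to 129 CPM in PBS_CP lungs and 49.4 to 126 CPM in PBS_SAL lungs, and the 6 NK cell genes had medians of 51.2, 56.2, 61.5 and 63.5 CPM in the same order. The part of these cells in the rise of Nfil3 was not tested.

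The 3 repressors of CLOCK and BMAL1 fell as well. Ciart (CHRONO), which binds BMAL1, had a lowest, median and highest level of 14.3, 15.4 and 18.3 CPM in HDM_CP lungs, 16.8, 18.5 and 25.1 CPM in HDM_SAL lungs, 15.6, 18.1 and 25.7 CPM in PBS_CP lungs and 21.6, 27.2 and 40.4 CPM in PBS_SAL lungs. HDM_CP and PBS_SAL libraries did not overlap. Ciart fell by 0.84 ± 0.12 in HDM_CP against PBS_SAL lungs (edgeR adjusted p = 2.42e-05) and by 0.55 ± 0.12 in HDM_SAL against PBS_SAL lungs (edgeR adjusted p = 0.00835). The whole gene lies opposite the lncRNA gene C920021L13Rik, which had a mean estimated count of 2241 against 1480 for Ciart, so the counts of both may be mixed. C920021L13Rik moved by -0.15 ± 0.12 in HDM_CP against PBS_SAL lungs and by -0.02 ± 0.13 in HDM_SAL against PBS_SAL lungs and was not called (edgeR adjusted p = 0.509 and 0.957).

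Cipc, the CLOCK-interacting pacemaker gene, varied little between mice, with 42.1, 44.4 and 48.4 CPM in HDM_CP lungs, 45.5, 47.8 and 53.2 CPM in HDM_SAL lungs, 46.9, 48.7 and 52.3 CPM in PBS_CP lungs and 52.5, 56.2 and 57.7 CPM in PBS_SAL lungs. All HDM_CP and all PBS_CP libraries lay below the lowest PBS_SAL library, the PBS_CP libraries by a narrow margin. Its falls were the smallest among the called members, 0.30 ± 0.04 in HDM_CP against PBS_SAL lungs (edgeR adjusted p = 1.09e-05) and 0.19 ± 0.04 in HDM_SAL against PBS_SAL lungs (edgeR adjusted p = 0.00541). Bhlhe41 (DEC2), an E-box repressor, had 22.4, 23.7 and 34.0 CPM in HDM_CP lungs, 18.6, 29.4 and 37.9 CPM in HDM_SAL lungs, 24.5, 34.7 and 49.8 CPM in PBS_CP lungs and 45.4, 51.1 and 59.3 CPM in PBS_SAL lungs. No library of the allergen groups reached the PBS_SAL range. Bhlhe41 fell by 1.03 ± 0.17 in HDM_CP against PBS_SAL lungs (edgeR adjusted p = 1.53e-04) and by 0.83 ± 0.18 in HDM_SAL against PBS_SAL lungs (edgeR adjusted p = 0.00673). Bhlhe41 is also a regulator of alveolar macrophages, whose 12 marker genes summed to a median of 491 CPM in HDM_CP lungs, 460 CPM in HDM_SAL lungs, 392 CPM in PBS_CP lungs and 429 CPM in PBS_SAL lungs. Of these 12 genes, 5 were called higher and 3 lower in HDM_CP against PBS_SAL lungs, and 1 higher and 0 lower in HDM_SAL against PBS_SAL lungs, and 7 of the 12 had a negative value in each of these comparisons. The part of these cells in the fall of Bhlhe41 was not tested.

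Usp2, which encodes a clock-controlled deubiquitinase, had a lowest, median and highest level of 8.57, 10.3 and 13.5 CPM in HDM_CP lungs, 8.08, 12.3 and 19.5 CPM in HDM_SAL lungs, 11.1, 13.3 and 18.4 CPM in PBS_CP lungs and 14.7, 16.4 and 20.2 CPM in PBS_SAL lungs. HDM_CP lungs lay below all PBS_SAL lungs. Usp2 fell by 0.69 ± 0.14 in HDM_CP against PBS_SAL lungs (edgeR adjusted p = 0.00128), and its value in HDM_SAL against PBS_SAL lungs, -0.40 ± 0.15, did not pass (edgeR adjusted p = 0.118). Without HDM_SAL 54, whose 19.5 CPM was the highest of that group, this comparison passed (edgeR adjusted p = 0.0255). The whole of Usp2, 28607 bases, lies opposite the protein-coding gene Gm49380. That gene had a mean estimated count of 148 against 966 for Usp2, so their counts may be mixed in part.

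Counting genes whose libraries did not overlap at all, 8 members were entirely lower in HDM_CP than in PBS_SAL lungs, where 1.02% of all genes were. In HDM_SAL against PBS_SAL lungs 5 members were (Nr1d1, Dbp, Tef, Hlf and Bhlhe41), where 0.804% of all genes were. No member was entirely higher in HDM_CP or in HDM_SAL than in PBS_SAL lungs, where 2.22% and 1.17% of all genes were. Each of the 10 genes kept its direction in all 3 runs of library numbers in HDM_CP against PBS_SAL, HDM_SAL against PBS_SAL and HDM_CP against PBS_CP lungs. The median difference in HDM_SAL against PBS_SAL lungs was -0.56 in run 45 to 64, -0.44 in run 66 to 81 (which has 1 HDM_SAL library) and -0.91 in run 96 to 105, on the log2 CPM scale. In HDM_CP against PBS_SAL lungs these medians were -1.05, -0.74 and -0.84.

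**Figure D3:**
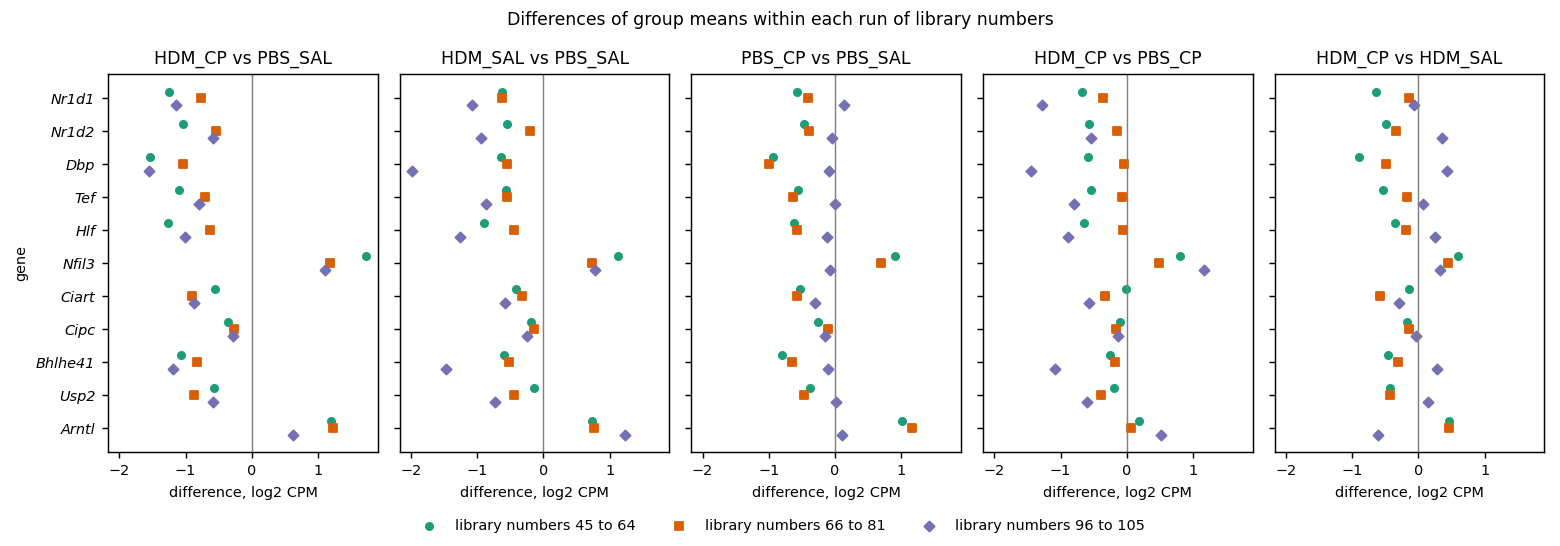
Difference in mean log2 CPM between groups for each of the 10 genes and Arntl within each of the 3 runs of library numbers, with 1 point per gene and run. Differences of HDM_CP and of HDM_SAL against PBS_SAL lie below 0 for 9 of the 10 genes and above 0 for Nfil3 and Arntl in every run, while those for combustion products scatter around 0 in run 96 to 105.

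Some of the HDM_SAL calls rested on single libraries, on the filter or on the covariates of the model. With ciliated and club cell scores as covariates 4 members were called in HDM_SAL against PBS_SAL lungs, where 474 of 24629 genes were. Without a filter on low counts 6 members were called in HDM_SAL against PBS_SAL lungs, and Nr1d1 (edgeR adjusted p = 0.0532), Nr1d2 (0.0613) and Dbp (0.0852) were not. Of all genes, 948 of 40749 were called then, against 1339 of 24629 in the main fit. Without HDM_SAL 99 alone, 5 members were called in HDM_SAL against PBS_SAL lungs, and Nr1d1 (edgeR adjusted p = 0.0751), Nr1d2 (0.0797), Dbp (0.124) and Tef (0.0517) were not. Fewer of all genes were called as well, 602 of 24987. Without HDM_SAL 50, 54 and 99, an alternative chosen after the data were seen that leaves 3 HDM_SAL libraries, 0 members and 34 of all genes were called. The fold changes then were of like size, with -0.84 ± 0.25 for Nr1d1, -1.15 ± 0.40 for Dbp, -0.98 ± 0.22 for Bhlhe41 and 0.87 ± 0.25 for Nfil3 (edgeR adjusted p of 0.0671 to 0.358). Dbp, close to the threshold, was also lost without any 1 of HDM_SAL 50, 52, 54 and 100, PBS_SAL 61, 64, 79, 80, 81 and 104, PBS_CP 58 and 76, and HDM_CP 96 (edgeR adjusted p of 0.0504 to 0.124 over the 14 libraries). Nr1d2 was also lost without HDM_SAL 50 (0.0615), HDM_SAL 54 (0.0541) or PBS_SAL 80 (0.0645). All 10 members stayed called in HDM_CP against PBS_SAL lungs whichever single library was left out, where 2685 to 4132 of all genes were called. In HDM_CP against PBS_CP lungs 5 members were called without HDM_CP 66, with Bhlhe41 (0.0260), Cipc (0.0246) and Tef (0.0469) added to Nr1d1 and Nfil3, and 4 without HDM_SAL 100, with Bhlhe41 (0.0491) and Cipc (0.0436) added. Of all genes, 2600 of 24574 and 1991 of 24994 were called in these fits, against 1938 of 24629 in the main fit. In the same comparison Bhlhe41 was also called without PBS_CP 57 (0.0364) or PBS_CP 59 (0.0410), and Cipc without HDM_SAL 54 (0.0423).

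Combustion products alone gave values of the same signs as the allergen, none of which passed. In PBS_CP against PBS_SAL lungs the values were -0.71 ± 0.28 for Dbp, -0.54 ± 0.12 for Ciart, -0.52 ± 0.17 for Bhlhe41, -0.48 ± 0.20 for Hlf, -0.45 ± 0.16 for Tef, -0.35 ± 0.16 for Nr1d2, -0.32 ± 0.14 for Usp2, -0.30 ± 0.18 for Nr1d1, -0.18 ± 0.04 for Cipc and 0.51 ± 0.20 for Nfil3. None of the 10 passed (smallest edgeR adjusted p = 0.163, for Ciart and Cipc), where 0.00812% of all genes were called. At an unadjusted p under 0.05, 9 of the 10 stood out, all but Nr1d1, where 5.45% of all genes did. DESeq2 and limma voom with sample weights each called 2 members, Ciart and Cipc, where they called 0.156% and 0.0406% of all genes. Every PBS_CP library of Cipc lay below every PBS_SAL library, where 0.138% of all genes did so. In run 96 to 105 the median difference over the 10 genes was -0.08, against -0.55 and -0.53 in the other runs, and 6 of the 10 genes kept 1 direction in all 3 runs.

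In allergen-treated mice the combustion products also gave no called member. HDM_CP against HDM_SAL lungs had -0.32 ± 0.18 for Nr1d1, -0.29 ± 0.12 for Ciart, -0.11 ± 0.04 for Cipc and 0.49 ± 0.20 for Nfil3, with the others between -0.30 and 0.03. None passed by DESeq2 or limma voom, which called 195 of 18619 and 3 of 24629 tested genes. None passed by edgeR either (smallest adjusted p = 0.348), where 0.00406% of all genes were called. At an unadjusted p under 0.05 there were 3, Ciart, Cipc and Nfil3, where 9.70% of all genes did so. The median difference over the 10 genes was -0.45 in run 45 to 64, -0.25 in run 66 to 81 (which has 1 HDM_SAL library) and 0.20 in run 96 to 105, where 3 of the 10 were negative, and 4 of the 10 genes kept 1 direction in all 3 runs. Averaged over allergen and PBS mice, Cipc fell by 0.15 ± 0.03 with combustion products (edgeR adjusted p = 0.0436), and Ciart had -0.41 ± 0.09 (edgeR adjusted p = 0.0647), where 0.0487% of all genes were called. The call of Cipc held without HDM_CP 45, HDM_CP 66, HDM_SAL 99, HDM_SAL 100, PBS_CP 76 or PBS_SAL 105 and was lost without any 1 of the other 21 libraries (edgeR adjusted p of 0.0507 to 0.120). The interaction term tested whether the effect of combustion products differed between allergen and PBS mice. No member passed by edgeR, DESeq2 or limma voom, and 0 members but 6.38% of all genes had an unadjusted p under 0.05 by edgeR. The interaction ranged from -0.02 ± 0.26 for Nr1d1 to 0.51 ± 0.29 for Hlf, and that of Dbp was 0.41 ± 0.41, an error of about the size of the single effects.

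Arntl moved opposite to the genes that fell. It had a lowest, median and highest level of 7.43, 17.0 and 19.2 CPM in HDM_CP lungs, 8.22, 14.7 and 25.3 CPM in HDM_SAL lungs, 9.28, 12.1 and 17.0 CPM in PBS_CP lungs and 3.56, 6.64 and 11.4 CPM in PBS_SAL lungs. Arntl rose by 1.08 ± 0.25 in HDM_CP against PBS_SAL lungs (edgeR adjusted p = 0.00401) and by 1.11 ± 0.26 in HDM_SAL against PBS_SAL lungs (edgeR adjusted p = 0.0120). Its value in PBS_CP against PBS_SAL lungs was 0.86 ± 0.25 and did not pass (edgeR adjusted p = 0.461).

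Some mice of 1 group also differed from each other along the same line. PBS_SAL 80 had the lowest Arntl of all libraries, 3.56 CPM, and the highest Dbp (241 CPM), Tef (533 CPM), Nr1d2 (262 CPM) and Ciart (40.4 CPM). It is of run 66 to 81, in which every library had Arntl below its group mean. HDM_SAL 100 had the highest Arntl, 25.3 CPM, and the lowest Nr1d2 of all libraries (79.3 CPM), with Dbp at 32.98 CPM. HDM_CP 97, with the lowest Arntl of its group at 7.43 CPM, had Dbp at 109 CPM and Tef at 313 CPM, close to the top of that group. Its Bhlhe41 and Ciart went the other way, with deviations from the group mean of -0.134 and -0.107 in log2 CPM. So did its Nfil3, with a deviation of 0.112. Fitted across all genes with the 4 group means in the model, the slope on log2 Arntl within groups was negative and passed for 4 members, where 0.146% of all genes were called and 0.110% with a negative slope. Nr1d2 had a slope of -0.55 ± 0.07 log2 per log2 of Arntl (edgeR adjusted p = 2.58e-05), Tef -0.53 ± 0.07 (edgeR adjusted p = 3.21e-04), Hlf -0.62 ± 0.09 (edgeR adjusted p = 0.0011) and Dbp -0.88 ± 0.14 (edgeR adjusted p = 0.00163). By p-value they ranked 5, 7, 12 and 15 among the 24628 genes tested. Nr1d1 (-0.39 ± 0.12), Bhlhe41 (-0.40 ± 0.11), Usp2 (-0.32 ± 0.10), Ciart (-0.31 ± 0.07), Cipc (-0.08 ± 0.03) and Nfil3 (0.37 ± 0.13) did not pass, with edgeR adjusted p of 0.0910 to 0.597. The call of Ciart turned without HDM_CP 45 (edgeR adjusted p = 0.0347) and without HDM_CP 97 (0.0107). The levels of all these genes come from the same libraries and share their normalization.

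**Figure D4:**
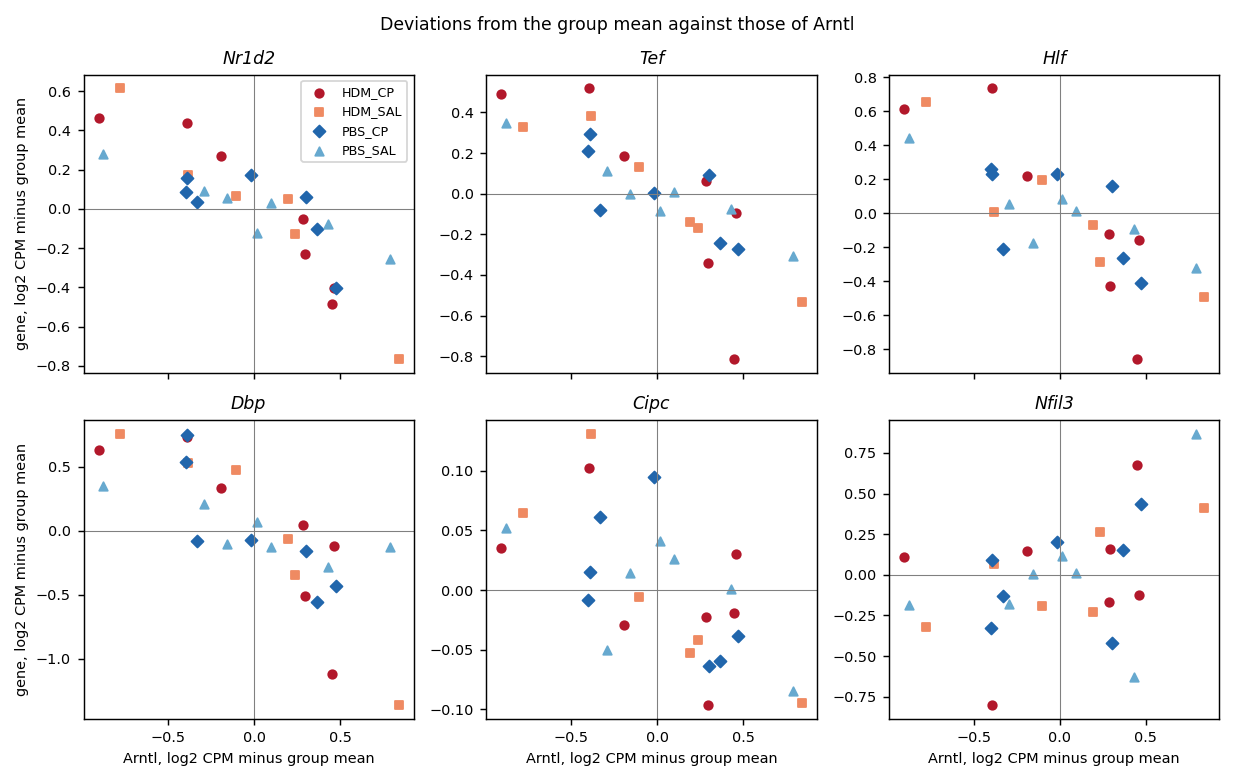
Deviation of Nr1d2, Tef, Hlf, Dbp, Cipc and Nfil3 from the group mean (log2 CPM, vertical) against that of Arntl (log2 CPM, horizontal) in the 27 libraries, coloured by group. Points of Nr1d2, Dbp, Tef and Hlf fall along a descending line, those of Cipc descend with more scatter, and those of Nfil3 ascend weakly.

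Within single groups the relation to Arntl was tested by exact permutation over 40 relations of 10 genes and 4 groups, two-sided and on log2 CPM. Dbp had Pearson's r of -0.798 in HDM_CP, -0.952 in HDM_SAL, -0.853 in PBS_CP and -0.826 in PBS_SAL lungs (exact p = 0.0276, 0.00139, 0.00556 and 0.0200; adjusted p = 0.0729, 0.0185, 0.0317 and 0.0668; n = 7, 6, 7 and 7). Spearman's rho was -0.857, -1, -0.893 and -0.857 (exact p = 0.0238, 0.00278, 0.0123 and 0.0238; adjusted p = 0.0680, 0.0370, 0.0680 and 0.0680). Without the 2 libraries farthest from the median of Arntl, r of Dbp was -0.677, -0.920, -0.782 and -0.828, so the direction did not rest on them. Nr1d2 had r of -0.927, -0.963, -0.699 and -0.940 in the same groups (exact p = 3.97e-04, 0.00139, 0.0423 and 0.00437; adjusted p = 0.0159, 0.0185, 0.0994 and 0.0291) and -0.951, -0.839, -0.579 and -0.677 without those 2. Its rho was -0.964, -1, -0.679 and -0.893 (exact p = 0.00278, 0.00278, 0.110 and 0.0123; adjusted p = 0.0370, 0.0370, 0.168 and 0.0680). These 2 genes were the ones with an exact p under 0.05 for r in all 4 groups. The permutation did not keep libraries within their run of library numbers. Deviations were also taken from the mean of run and group together, which rested on 2 or 3 libraries each. Where it rested on 2, their deviations mirror each other, so the 26 values are not independent. Over these 26 deviations, r was -0.798 for Nr1d2, -0.756 for Dbp, -0.773 for Tef and -0.74 for Hlf. For Nr1d1 it was -0.579, against -0.565 from group means alone. It was weaker for Bhlhe41 (-0.31 against -0.577), Ciart (-0.471 against -0.64) and Nfil3 (0.283 against 0.438).

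Tef (r between -0.959 and -0.736) and Hlf (r between -0.922 and -0.567) were negative in all 4 groups with and without the 2 farthest libraries. Each had an exact p under 0.05 in 3 of the groups. After adjustment Tef passed in HDM_SAL and PBS_SAL lungs (adjusted exact p = 0.0291 in both) and Hlf in none (smallest 0.0565). No rho of either passed (smallest adjusted exact p = 0.068). Without the 2 farthest libraries r of Hlf was only -0.196 in PBS_CP and -0.19 in PBS_SAL lungs. For Nr1d1, Ciart, Bhlhe41 and Usp2 r was negative in 4 groups but in 3 once those libraries were left out, and for Cipc in 2. In PBS_SAL lungs Nr1d1 had r of -0.254 (exact p = 0.573, adjusted p = 0.603) and 0.338 without those 2 libraries. Its relation to Arntl passed after adjustment in no single group (smallest adjusted exact p = 0.101, in PBS_CP lungs). For Nfil3 r was positive in all groups, between 0.312 and 0.737, and in 2 groups without those libraries, with no exact p under 0.05.

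Compared pair by pair over the 27 deviations from the group means, the members did not all move as 1 block. The most alike pairs were Dbp and Tef, with r of 0.927, and Tef and Hlf, with 0.924, while Dbp and Hlf had 0.868. Nr1d2 had r of 0.885 with Hlf and 0.877 with Tef, and Nr1d1 0.844 with Dbp and 0.842 with Tef, while the 2 REV-ERB genes had 0.717 with each other. Ciart had low values with the other genes that fell, between 0.311 with Nr1d1 and 0.511 with Dbp. Nfil3 was negative with all 9, from -0.711 with Nr1d1 to -0.263 with Ciart. These values describe libraries that share depth and normalization, and carry no test.

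Among the 13531 genes whose mean log2 CPM was 1 or more, those whose deviations were most like Dbp were Tef, Per3, Hlf, Nr1d2 and Dgat2 (r of 0.927 to 0.845), and those most opposite were Arntl, Npas2, Arrdc4, Arhgap18 and Rasl11a (-0.806 to -0.743). Nr1d1 had other neighbours. Lrrc17, Lrrn3, Dbp, Tef and Epha1 were most like it (0.852 to 0.825), and Plin2, which coats lipid droplets, Dtx4, Arrdc4, Eln (elastin) and Casp8 most opposite (-0.888 to -0.753). Nfil3 was most like Rhou, Eln, Mmp14, Igf1 and Atp6v0c (0.799 to 0.777) and most opposite to Phf24, Aldh6a1, Tppp, Ppl and Srrm1 (-0.802 to -0.744). Bhlhe41 was most like Dbp, Dgat2, Pik3ip1, Rsad1 and Per3 (0.784 to 0.700) and most opposite to Snx18, Pgam5, Ell2, Eipr1 and Enox2 (-0.691 to -0.659).

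Other genes of the core loop were called in the same comparisons as the members. Of 17 core clock genes, 3 were called higher and 9 lower in HDM_CP against PBS_SAL lungs, 2 higher and 5 lower in HDM_SAL against PBS_SAL lungs, 1 higher and 1 lower in HDM_CP against PBS_CP lungs, and 0 in either comparison of combustion products. Of all tested genes, 14.5%, 5.44% and 7.87% were called in the first 3 of these. The medians over the list were -0.18, -0.13, -0.06, -0.08 (PBS_CP against PBS_SAL) and -0.06 (HDM_CP against HDM_SAL). In HDM_CP against PBS_SAL lungs the smallest p-values were those of the cryptochrome gene Cry2 (-0.60 ± 0.10, edgeR adjusted p = 8.41e-05), the RORE activator gene Rora (-0.36 ± 0.07, adjusted p = 5.17e-04) and the period gene Per2 (-1.08 ± 0.21, adjusted p = 8.25e-04). HDM_SAL against PBS_SAL lungs were led by Npas2, the CLOCK paralogue gene (1.51 ± 0.29, edgeR adjusted p = 0.00286), Per1 (-1.32 ± 0.30, adjusted p = 0.00952) and Per2 (-0.97 ± 0.22, adjusted p = 0.0104). In HDM_CP against PBS_CP lungs Bhlhe40, the paralogue of Bhlhe41, rose by 0.48 ± 0.11 (edgeR adjusted p = 0.00556) and Cry2 fell by 0.39 ± 0.10 (adjusted p = 0.0112). In PBS_CP against PBS_SAL lungs Arntl and Cry1 (-0.38 ± 0.13) were among the genes of the list with the smallest p-values, and in HDM_CP against HDM_SAL lungs Bhlhe40 (0.26 ± 0.11) and Cry2 (-0.21 ± 0.10) were, with edgeR adjusted p of 0.430 to 0.637. Bhlhe40 also rose by 0.45 ± 0.11 in HDM_CP against PBS_SAL lungs (edgeR adjusted p = 0.00436), where Bhlhe41 fell. On Arntl within groups, Per2 had the smallest p of all genes (slope -0.76 ± 0.06, edgeR adjusted p = 8.19e-08), Per3, Per1 and Cry2 were also called negative, and Npas2 was called positive (0.92 ± 0.13, edgeR adjusted p = 3.63e-04).

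Of 10 genes described as repressed by REV-ERB, a list that holds Nfil3 and Arntl, 6 were called higher and 2 lower in HDM_CP against PBS_SAL lungs, 4 higher and 0 lower in HDM_SAL against PBS_SAL lungs, 3 higher and 0 lower in HDM_CP against PBS_CP lungs, and 0 in either comparison of combustion products. Of all tested genes, 14.5%, 5.44% and 7.87% were called in either direction in the first 3 of these. The neutrophil chemokine gene Cxcl5 rose by 4.57 ± 0.59 in HDM_CP against PBS_SAL lungs (edgeR adjusted p = 1.63e-05), by 3.29 ± 0.58 in HDM_SAL against PBS_SAL lungs (adjusted p = 0.00161) and by 3.74 ± 0.56 in HDM_CP against PBS_CP lungs (adjusted p = 1.91e-04). The monocyte chemokine gene Ccl2 rose by 2.36 ± 0.42 in HDM_CP against PBS_SAL lungs (edgeR adjusted p = 2.78e-04) and by 1.84 ± 0.41 in HDM_CP against PBS_CP lungs (adjusted p = 0.00486). In HDM_CP against HDM_SAL lungs, Ccl2 (1.15 ± 0.42), Nfil3 and Cxcl5 (1.28 ± 0.52) had the smallest p-values and did not pass (edgeR adjusted p of 0.332 to 0.405). On Arntl within groups, 1 of the 9 other genes of the list, Npas2, was called, with a positive slope.

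Glucocorticoids also drive Per1 and reset peripheral clocks, so 12 glucocorticoid-induced genes were counted. In HDM_CP against PBS_SAL lungs 1 was called higher and 5 lower, with Map3k6 at -0.87 ± 0.14 (edgeR adjusted p = 7.38e-05), Klf9 at -0.54 ± 0.11 (adjusted p = 0.00108) and Zbtb16 at -1.70 ± 0.37 (adjusted p = 0.00252). HDM_SAL against PBS_SAL lungs had 0 higher and 6 lower, with Map3k6 at -0.98 ± 0.14 (edgeR adjusted p = 2.97e-04), Zbtb16 at -2.16 ± 0.40 (adjusted p = 0.0025) and Klf9 at -0.56 ± 0.12 (adjusted p = 0.00504). In HDM_CP against PBS_CP lungs Klf9 was the 1 called, lower by 0.38 ± 0.11 on the log2 scale (edgeR adjusted p = 0.0337). Map3k6 (-0.37 ± 0.14) and Errfi1 (-0.45 ± 0.17) came next there and did not pass (edgeR adjusted p = 0.0947 and 0.112). Of all tested genes, 14.5%, 5.44% and 7.87% were called in HDM_CP against PBS_SAL, HDM_SAL against PBS_SAL and HDM_CP against PBS_CP lungs. Neither comparison of combustion products called any of the 12. PBS_CP against PBS_SAL lungs had -1.90 ± 0.38 for Zbtb16, -0.52 ± 0.13 for Fkbp5 and -0.49 ± 0.14 for Map3k6 (edgeR adjusted p of 0.154 to 0.408), and HDM_CP against HDM_SAL lungs had 0.33 ± 0.14 for Fkbp5, 0.25 ± 0.14 for Cdkn1a and 0.31 ± 0.18 for Tsc22d3 (edgeR adjusted p of 0.396 to 0.614). The part of these hormones in the levels of the 10 clock genes was not tested.

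With the library's log2 Arntl added to the model, an alternative chosen after the data were seen, 3 members were called in HDM_CP against PBS_SAL lungs and 0 in HDM_SAL against PBS_SAL lungs, where 3.74% and 0.589% of all genes were. The 3 were Nfil3 (1.01 ± 0.22, edgeR adjusted p = 0.00844), Cipc (-0.21 ± 0.05, adjusted p = 0.00625) and Ciart (-0.49 ± 0.12, adjusted p = 0.0235). Within the CP-exposed mice, whose groups differed little in Arntl (0.22 ± 0.25 in HDM_CP against PBS_CP lungs), 4 members were called, where 7.05% of all genes were: Nr1d1 (-0.67 ± 0.15, edgeR adjusted p = 0.00718), Nfil3 (0.81 ± 0.18, adjusted p = 0.00467), Tef (-0.34 ± 0.09, adjusted p = 0.0237) and Nr1d2 (-0.29 ± 0.08, adjusted p = 0.0307). Arntl itself differed between the allergen and control groups, so this model removes part of the difference between them along with the variation among mice.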

How the data were processed

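Lungs of 27 mice were profiled by polyA-selected RNA sequencing with 20 M read pairs of 150 bases planned per library, per the labels' protocols. The submitters' processing notes name StringTie 2, the GRCm39 build and STAR (release not given in the sources used here). The deposited estimated counts are whole-number gene totals of unstated scaling, and the authors' TPM values are scaled to a fixed sum per library and carry no depth. The number in each label tied its columns to the sample. Rows that lack a symbol (310, 0.0602% of counts) stayed in under their gene identifier.

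The count test was that of edgeR 4.0.16 (R 4.3.3). Its filterByExpr step at a minimum count of 10 left 24629 genes, library scaling was TMM, and the 4 group means were fitted over all 27 libraries, with a common spread. The quasi-likelihood F tests (robust, two-sided) were adjusted over all genes by Benjamini-Hochberg at 0.05. Each standard error is the fold change over the root of F. A prior count of 2 went into log2 CPM. The slope fit added log2 CPM of Arntl, and within-group correlations used exact permutation over pairings (scipy 1.17.1). The fits were tested on simulated data. No label says that mice came from separate litters or cages, so p-values measure only the spread between these samples, which may be in part technical.

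The 10 genes, the lists, the tests and most alternatives were chosen with earlier results of these data known. Genes named were the 10 members and Arntl; from each list the 3 with the smallest p in each comparison of 2 groups; and for Dbp, Nr1d1, Nfil3 and Bhlhe41 the 5 most alike and 5 most opposite genes. Some genes that this rule names are not reported here. A few others (Bhlhe40 in a second comparison, and overlapping genes) were named after their values were seen. Promoters came from the RefSeq table of GRCm38.p6, and gene overlaps from the deposited positions. Alternatives were other scaling, filters and tools (DESeq2 1.42.0, limma 3.58.1), TPM in place of counts, the run of library numbers or airway marker scores as covariates, and leaving out libraries.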

Additional observations from a re-analysis of the deposited data

Results flagged for a closer look

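In 3 of 44 groups of libraries tested (the 10 genes and Arntl in 4 groups each), 1 library lay farther from the rest than Dixon's 95% critical value, on log2 CPM, and chance flags about 1 in 20. Bhlhe41 was 34.0 CPM in HDM_CP 66, against 22.4 to 25.3 CPM in the other HDM_CP lungs, a gap of 0.706 of the group's range where 0.568 is critical. Ciart was 25.1 CPM in HDM_SAL 72, against 16.8 to 19.1 CPM in the other HDM_SAL lungs, a gap of 0.681 where 0.625 is critical. Usp2 was 18.4 CPM in PBS_CP 102, against 11.1 to 13.7 CPM in the other PBS_CP lungs, a gap of 0.583 where 0.568 is critical. All 3 libraries were the highest of their group, and HDM_CP 66 also had the highest Hlf (53.9 CPM), Nr1d1 (263 CPM) and Tef (320.0 CPM) of its group.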

How the results depend on the processing

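Over 42 other settings, 3095 of 3280 values of single genes kept their direction and side of the threshold, 85 lost it, 38 gained it and 62 changed sign, none of them a called value. In HDM_CP vs PBS_SAL 10 members were called in every setting but with Arntl as a covariate (3). Of all 24629 genes, 3567 were called in the main setting and 921 with that covariate. In HDM_SAL vs PBS_SAL 9 became 6 without a filter, 4 with ciliated and club cell scores as covariates, 0 with Arntl as a covariate and 0 without HDM_SAL 50, 54 and 99, and 5 to 9 leaving out 1 library. Of all genes, 1339 of 24629 became 948 of 40749, 474 of 24629, 145 of 24629 and 34 of 25991 in the same order. Leaving out 1 library gave 602 to 1656. In HDM_CP vs PBS_CP 2 became 4 with DESeq2, 4 with the Arntl covariate and 1 with the airway scores, and 2 to 5 leaving out 1 library. Of all genes, 1938 of 24629 became 2514 of 21765, 1737 of 24629 and 1649 of 24629, and 1207 to 2600 leaving out 1 library. PBS_CP vs PBS_SAL gave 2 with DESeq2 and 2 with limma voom in place of 0. Of all genes these tools called 34 of 21765 and 10 of 24629, in place of 2. For CP averaged over HDM and PBS mice 1 became 3 with DESeq2, 2 with limma voom, 2 with the run as a block, 2 without the 3 libraries of lowest totals, 0 without a filter, 0 in each of the 3 TPM settings, 0 with the airway scores, 0 with the Arntl covariate and 0 without HDM_SAL 50, 54 and 99, and 0 to 2 leaving out 1 library. Of all genes, 12 became 174 with DESeq2, 30 with limma voom, 25 with the run as a block and 33 without the 3 libraries of lowest totals. The number was 8 without a filter, 4 or 5 with TPM, 3 with the airway scores and 5 with the Arntl covariate. It was 26 without HDM_SAL 50, 54 and 99, and 4 to 102 leaving out 1 library. The cause was not tested, except that leaving out libraries leaves fewer samples.

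Signs changed for values that were not called. In HDM_CP vs HDM_SAL, Hlf (0.03) became -0.029 with the run as a block, -0.19 with the airway scores, -0.036 with limma voom, -0.0063 with the Arntl covariate and -0.043 without HDM_SAL 50, 54 and 99. It ranged from -0.12 to 0.18 leaving out 1 library, and Nr1d2 (-0.08) from -0.20 to 0.060. In the interaction of HDM and CP, Nr1d1 (-0.02) became 0.041 with the airway scores, 0.12 without the 3 libraries of lowest totals, 0.10 without HDM_SAL 50, 54 and 99 and -0.16 to 0.11 leaving out 1 library. Nfil3 (-0.02) became 0.0030 with log2(TPM + 1), filtered or not, 0.012 without HDM_SAL 50, 54 and 99 and -0.20 to 0.089 leaving out 1 library, and Usp2 ranged from -0.069 to 0.19. With the Arntl covariate, PBS_CP vs PBS_SAL became 0.034 for Nr1d1, 0.14 for Nr1d2, 0.010 for Dbp, 0.030 for Tef and 0.080 for Hlf, and CP averaged over HDM and PBS mice became 0.029 for Nr1d2 and 0.037 for Hlf. The interaction became -0.23 for Nr1d2, -0.28 for Dbp, -0.21 for Tef, -0.086 for Hlf, 0.32 for Nfil3, -0.030 for Ciart, -0.0021 for Cipc and -0.23 for Usp2.

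Of all genes, 1339 were called in HDM_SAL vs PBS_SAL (786 higher, 553 lower), 1963 with DESeq2 and 602 to 1656 leaving out 1 library, and log2(TPM + 1) turned the split to 521 higher and 849 lower. DESeq2 called 195 genes in HDM_CP vs HDM_SAL, where edgeR called 1. No paired analysis was possible because the groups share no replicate numbers. Depth limits Nfil3, Usp2 and Arntl most, whose counts were lowest.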
